A study of Mus musculus with 4 samples.

Results

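The platelet-derived growth factor (PDGF) ligands Pdgfa, Pdgfb, Pdgfc and Pdgfd and the receptors Pdgfra and Pdgfrb were followed across the cell types of mouse testicular organoids (TOs) and mouse testis. The members were the 6 genes of these names among the 32285 genes of the count matrices. Raw unique molecular identifier (UMI) counts of each were summed per library and cell type. The rule that chose them names genes and sets no threshold on a value.

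The TOs were rebuilt from dissociated cells of neonatal ICR mouse testes. They were embedded in basement membrane extract and cultured on inserts at the air and liquid interface, in medium with knockout serum replacement, follicle-stimulating hormone and testosterone. The study's methods and design name day 28 TOs and testes of 28-day-old mice, while the protocol in the deposited sample record names day 21 TOs. There were 2 TO and 2 testis libraries of unsorted cells, made with the 10x Genomics 3′ chemistry. The study describes the testis libraries as biological replicates, and it mentions 2 independent batches of organoids without tying them to libraries. The p-values below for changes within a cell type measure the spread between these libraries, which for the TOs may be technical. Those for differences between cell types measure the spread that remains once each library's own level is removed. That spread too may be technical for the TOs.

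PDGFs are secreted dimers. The A chain acts through the alpha receptor, the B chain acts through both receptors, and the C and D chains are secreted in a latent form that must be cleaved before they bind; C acts mainly through the alpha and D mainly through the beta receptor. The receptors are tyrosine kinases. In the developing testis Sertoli cells, the supporting cells of the tubule, are a known source of PDGF-A, and the interstitial cells that give rise to Leydig cells, the makers of testosterone, carry the alpha receptor. In vessel walls, endothelial PDGF-B recruits pericytes that carry the beta receptor.

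The libraries held between 74988295 and 119966959 UMIs, and between 8713 and 9867 cells were kept per library. The median was 5480 and 7561 UMIs per cell in the TO libraries and 2549 and 3271 in the testis libraries. Any pair of libraries shared 30 to 55 cell barcodes, 0.246% to 0.440% of a library's barcodes. Clusters were named from marker lists that held none of the 6 members. Sertoli, stromal, peritubular myoid, Leydig and macrophage cells were found in all 4 libraries. A pair of clusters did not hold the same cells in both groups. In the pericyte-like cluster the testis cells carried Rgs5, a pericyte marker, at 980 and 1509 CPM (the gene's UMIs scaled to a fixed total of the cells' summed UMIs), against 0 and 4.81 in the TO cells, which instead carried the stromal gene Dcn at 2885 and 2771 CPM (24.1 and 4.34 in testis). In the endothelial-like cluster, Pecam1, an endothelial adhesion molecule, was at 308 and 274 CPM in the testis cells and at 0 in both TO libraries. The TO cells there carried Pax8, a gene of the rete testis epithelium, at 416 and 508 CPM, against 0 in testis. The 5 pericyte markers summed to 90.2 and 200.2 CPM in TO and 1888 and 2874 in testis, and the 7 endothelial markers to 243 and 132 against 3557 and 2952. When the libraries were clustered without Harmony, which aligns them, no TO cell fell in a cluster named pericyte or endothelial. The main testis clusters of stromal, myoid, Sertoli and Leydig cells then held no TO cell either. Other clusters of those 4 names held the TO cells, so separation without Harmony was not particular to the pericyte-like and endothelial-like clusters. The pericyte-like and endothelial-like clusters are called clusters 19 and 22 below where TO cells are meant. Their values are given without a test between TO and testis.

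On mm10/GRCm38 (GENCODE vM21) the genes lie as follows: Pdgfa (ENSMUSG00000025856) at chr5:138976014-138997370 on the minus strand, Pdgfb (ENSMUSG00000000489) at chr15:79995874-80014977 on the minus strand, Pdgfc (ENSMUSG00000028019) at chr3:81036416-81214040, Pdgfd (ENSMUSG00000032006) at chr9:6168584-6378850 and Pdgfra (ENSMUSG00000029231) at chr5:75152292-75198215, the last 3 on the plus strand. All are annotated as protein coding. Pdgfd overlaps Ddi1, a protein-coding gene on the other strand, and the sources do not say whether counting used strand. Ddi1 was at 123 and 125 CPM in testis spermatids, where reads of the pair cannot be told apart if strand was not used. Pdgfa, Pdgfb, Pdgfc and Pdgfra overlap antisense transcripts.

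The start regions of Pdgfa and Pdgfra are shown because calls below concern Pdgfa RNA in Sertoli cells and Pdgfra RNA in myoid cells. Proteins were not measured. Each run holds 300 bases, 250 before and 50 after a start, in RefSeq on GRCm38.p6, read 5′ to 3′ on the gene's strand. Capitals mark GC boxes (GGGCGG, or CCGCCC on the other strand).
Pdgfa start 1, chr5:138994232-138994531, minus strand: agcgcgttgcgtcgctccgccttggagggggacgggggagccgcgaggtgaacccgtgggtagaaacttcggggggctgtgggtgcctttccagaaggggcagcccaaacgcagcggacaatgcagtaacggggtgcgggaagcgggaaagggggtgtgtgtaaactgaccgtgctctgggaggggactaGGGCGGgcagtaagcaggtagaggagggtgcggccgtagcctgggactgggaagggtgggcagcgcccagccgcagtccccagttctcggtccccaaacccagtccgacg
Pdgfa start 2, chr5:138994895-138995194, minus strand: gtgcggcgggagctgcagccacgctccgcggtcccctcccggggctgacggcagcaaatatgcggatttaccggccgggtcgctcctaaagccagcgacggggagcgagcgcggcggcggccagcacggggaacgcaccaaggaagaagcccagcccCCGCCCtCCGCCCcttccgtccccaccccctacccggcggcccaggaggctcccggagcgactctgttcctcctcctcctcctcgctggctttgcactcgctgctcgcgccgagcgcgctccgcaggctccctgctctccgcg
Pdgfra, chr5:75152001-75152300, plus strand: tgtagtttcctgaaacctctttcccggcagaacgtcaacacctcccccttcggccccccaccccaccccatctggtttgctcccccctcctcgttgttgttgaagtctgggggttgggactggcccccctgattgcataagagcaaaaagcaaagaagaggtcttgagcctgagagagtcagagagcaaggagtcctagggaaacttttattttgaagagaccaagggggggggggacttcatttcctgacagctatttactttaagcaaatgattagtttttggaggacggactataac
The Pdgfa starts were 67% and 73.3% G and C, against 51% for Pdgfra and a median of 52.7% over 32851 RefSeq starts. The GC box was the single motif found in them among 5 searched on both strands. It was present once in start 1 and at 2 places in start 2 of Pdgfa, absent from the Pdgfra window, and present in 35.7% of all starts. The others searched were TATAAA (13.6% of all starts), CCAAT (37.4%), GCGGGGGCG (2.91%), which can overlap a GC box, and TGACTCA (5.20%). The Pdgfd window held TATAAA at 1 place, and the Pdgfc window held none of the 5.

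**Figure D1:**
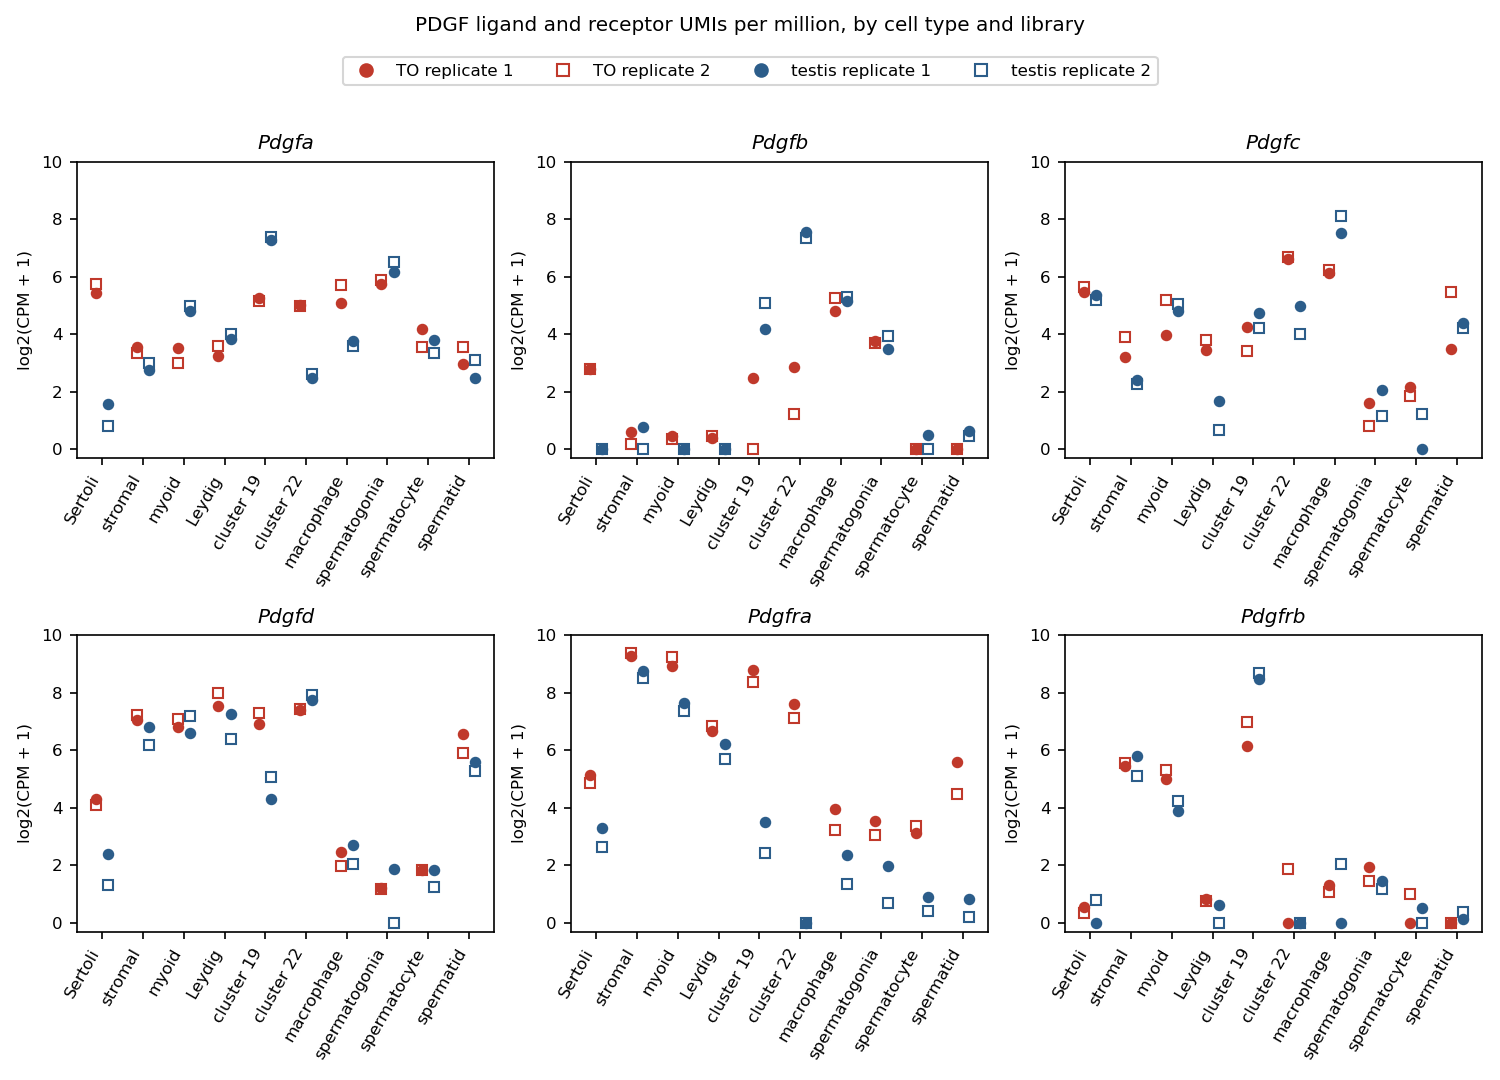
Level of each PDGF member as log2(CPM + 1) in each cell type, 1 point per library (2 TO and 2 testis libraries). Pdgfa in Sertoli cells was at 41.9 and 53.2 CPM in TO and at 1.94 and 0.746 CPM in testis, and Pdgfrb was highest in the testis cells of cluster 19, at 360 and 417 CPM.

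Pdgfa, the main ligand of the alpha receptor, was present in Sertoli cells of TO and nearly absent from Sertoli cells of the 28-day testis. Other TO cell types carried it too, and the Sertoli range in TO overlapped those of spermatogonia and macrophages. The TO libraries held 610 and 396 Pdgfa UMIs in Sertoli cells (41.9 and 53.2 CPM), and the testis libraries held 5 and 1 (1.94 and 0.746 CPM). The groups did not overlap, and the pooled level was 29.8 times higher in TO (95% interval of the counts 13.7 to 81.4, covering counting error only). In the edgeR fit with no gene left out, Pdgfa was higher by 5.05 on the log2 scale (SE 0.41, adjusted p = 0.000109), and it was called in each of the 16 settings in which it was compared, at 4.13 to 6.54. A gene was called at an adjusted p under 0.01 with a log2 change over 1. All other cells of the TO libraries together were at 15.8 and 15.99 CPM, below the Sertoli level. In testis the other cells were at 14.0 and 13.3 CPM, above it, and Pdgfa was therefore dropped from the planned Sertoli comparison. That comparison leaves out genes at least 5 times higher in a library group's other cells in either condition, standing for the study's removal of possible contaminating transcripts.

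Pdgfa was higher in the TO libraries in each of the 3 Sertoli clusters. It was 41.5 and 53.0 CPM in TO against 2.22 and 0 in testis in cluster 6, 72.1 and 62.5 against 0 and 3.39 in cluster 21, and 26.3 and 18.2 against 0 and 0 in cluster 24, which held only 22 and 8 testis cells. For shares of cells, those under 1500 UMIs were left out: 23 and 10 TO Sertoli cells, and 0 in both testis libraries. With every other cell thinned to 1500 UMIs, 5.53% of 1537 and 5.52% of 725 TO Sertoli cells held a Pdgfa UMI. In testis 0 of 466 (exact binomial upper limit 0.788%) and 0.417% of 240 did. The 2 against 2 libraries did not overlap, which in an exact two-sided permutation test gives p = 0.33, the smallest this design allows. The summed Sertoli markers of cluster 6 were at 8267 and 8409 CPM in TO and 5284 and 5488 in testis. The testis cells of these clusters also carried spermatid RNA. The 8 spermatid markers summed to 4.05 and 4.83 CPM in TO and 1406 and 1453 in testis in cluster 6, to 11.1 and 11.4 against 6749 and 17344 in cluster 21, and to 7.90 and 36.4 against 3985 and 3737 in cluster 24. In clusters 21 and 24 these testis sums were above those of the Sertoli markers in the same cells (2974 and 3148, and 1437 and 1596 CPM), and cluster 21 held 129 of 466 and 126 of 240 testis Sertoli cells. In cluster 6 alone, with 574 and 373 Pdgfa UMIs in TO and 5 and 0 in testis, Pdgfa was called (log2 change 5.08, SE 0.52, adjusted p = 0.000373, a fit chosen after seeing the data, with 24.3% of 13792 genes called). Whether spermatid RNA had a part in the result was not tested further. Testis cells of the other types carried it too. The same 8 markers summed to 3213 and 3416 CPM in testis stromal cluster 1 (3.47 and 6.58 in TO). They were at 3266 and 3374 in myoid cells (3.17 and 6.30 in TO) and 2640 and 3310 in macrophages (2.52 and 5.15). In Leydig cluster 3 they were at 1301 and 1409.5 (1.51 and 4.26 in TO). The part of spermatid RNA in the levels of these types was not tested. Stromal markers summed in cluster 6 to 150 and 104 CPM in TO and 20.5 and 15.7 in testis, and their part in the result was not tested. The antisense transcript 6330403L08Rik was at 3.57 and 3.49 CPM in TO Sertoli cells.

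Pdgfc, a ligand of the alpha receptor, stood at a like level in Sertoli cells of both groups. It was at 43.5 and 48.7 CPM in TO and at 40.0 and 35.8 CPM in testis. The log2 difference was 0.32 (SE 0.19, adjusted p = 0.202), and it was the single member left in the planned Sertoli comparison, in which 24.4% of 12713 genes were called. Its pooled ratio was 1.17 (0.987 to 1.40). After thinning, 6.64% and 6.48% of TO and 3.86% and 3.33% of testis Sertoli cells held a Pdgfc UMI, a gap that the summed counts did not show beyond their error. With no gene left out, 4 of 5 members were called higher, where 29.8% of 14499 genes were called (9.12% higher).

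The other 3 of these 4 rested on few UMIs or on genes that were far higher in other cells. Pdgfb, which binds both receptors, had 86 and 44 UMIs in TO Sertoli cells (5.91 CPM in each library) and 0 in both testis libraries. That is at least 7.71-fold higher, against a floor of 3 counts over the testis group (0.767 CPM). Its call was lost without testis replicate 1 (adjusted p = 0.0114) and with doublets kept (adjusted p = 0.0115). Pdgfd was at 19.02 and 16.1 against 4.27 and 1.49 CPM (log2 change 2.53, adjusted p = 0.00231).

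Pdgfra was at 34.7 and 28.2 against 8.94 and 5.22 CPM in Sertoli cells (log2 change 2.17, adjusted p = 0.00103). The alpha receptor's level in Sertoli cells was 5.63% and 4.204% of the stromal level in TO and 2.08% and 1.42% in testis, while Dcn there was at 1.68% and 0.992% of its stromal level in TO and 0.123% and 0.0202% in testis. With estimated background RNA subtracted, the Pdgfra call was lost (log2 change 1.60, adjusted p = 0.0232). The beta receptor was at 0.481 and 0.269 CPM in TO Sertoli cells and at 0 and 0.746 CPM in testis.

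Germ cells also carried Pdgfa. In spermatogonia, the dividing germ cells at the tubule wall, it was at 52.1 and 58.5 CPM in TO and 70.5 and 90.2 in testis. The groups did not overlap, but the log2 difference was -0.58 (SE 0.20, adjusted p = 0.0994), and none of 2 members compared was called in spermatogonia, where 8.94% of 12354 genes were (1 member was at an unadjusted p under 0.05). In TO the spermatogonia and Sertoli ranges overlapped, so their order was not resolved. After thinning, 7.72% and 7.16% of TO and 12.1% and 13.8% of testis spermatogonia held a Pdgfa UMI. Pdgfb was at 12.7 and 11.9 CPM in TO and 10.2 and 14.3 CPM in testis spermatogonia, with overlapping groups.

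Pdgfa was lower in TO in the myoid cells, the contractile cells around the tubule. The values were 10.5 and 7.04 CPM in TO and 27.3 and 30.2 CPM in testis. The groups did not overlap, and Pdgfa fell by 1.75 on the log2 scale (SE 0.33, edgeR adjusted p = 0.00226). The call was lost without testis replicate 1 (adjusted p = 0.0124) and without testis replicate 2 (adjusted p = 0.01004), and with estimated background RNA subtracted, where the log2 change was -4.33 (adjusted p = 0.0433). After thinning, 1.62% and 0.951% of TO and 4.84% and 5.63% of testis myoid cells held a UMI.

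The highest Pdgfa level in testis was in the pericyte-like cells, at 155 and 167 CPM. The TO cells of that cluster, which lacked Rgs5, were at 37.6 and 34.7 CPM. In stromal cells Pdgfa was low, at 10.7 and 9.16 CPM in TO and 5.74 and 6.97 CPM in testis (log2 difference 0.71, adjusted p = 0.21). In Leydig cells it was at 8.56 and 11.0 against 13.3 and 15.05 CPM (log2 difference -0.69, adjusted p = 0.181).

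The change of Pdgfa between TO and testis differed between cell types. In a fit of Sertoli, stromal, myoid and Leydig cells with the library as a block, the Pdgfa change in Sertoli cells exceeded that in myoid cells by 6.51 (the myoid change minus the Sertoli change was -6.51, SE 0.51, adjusted p = 4.64e-06), that in Leydig cells by 5.44 (-5.44, SE 0.50, adjusted p = 1.06e-05) and that in stromal cells by 4.03 (-4.03, SE 0.65, adjusted p = 0.00106). In these pairs 7.32%, 9.71% and 7.42% of 17949 genes were called at an adjusted p under 0.01. Over 5 members and 6 pairs of these types, 6 of 30 such differences were called; Pdgfb was left out because several sums held 0 UMIs. For Pdgfa the myoid and Leydig differences from Sertoli cells were called with any single library left out, and the stromal difference was lost without testis replicate 1 (adjusted p = 0.0340) or testis replicate 2 (0.0193). The myoid minus stromal difference of Pdgfa was -2.48 (adjusted p = 0.0141) and was not called.

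**Figure D2:**
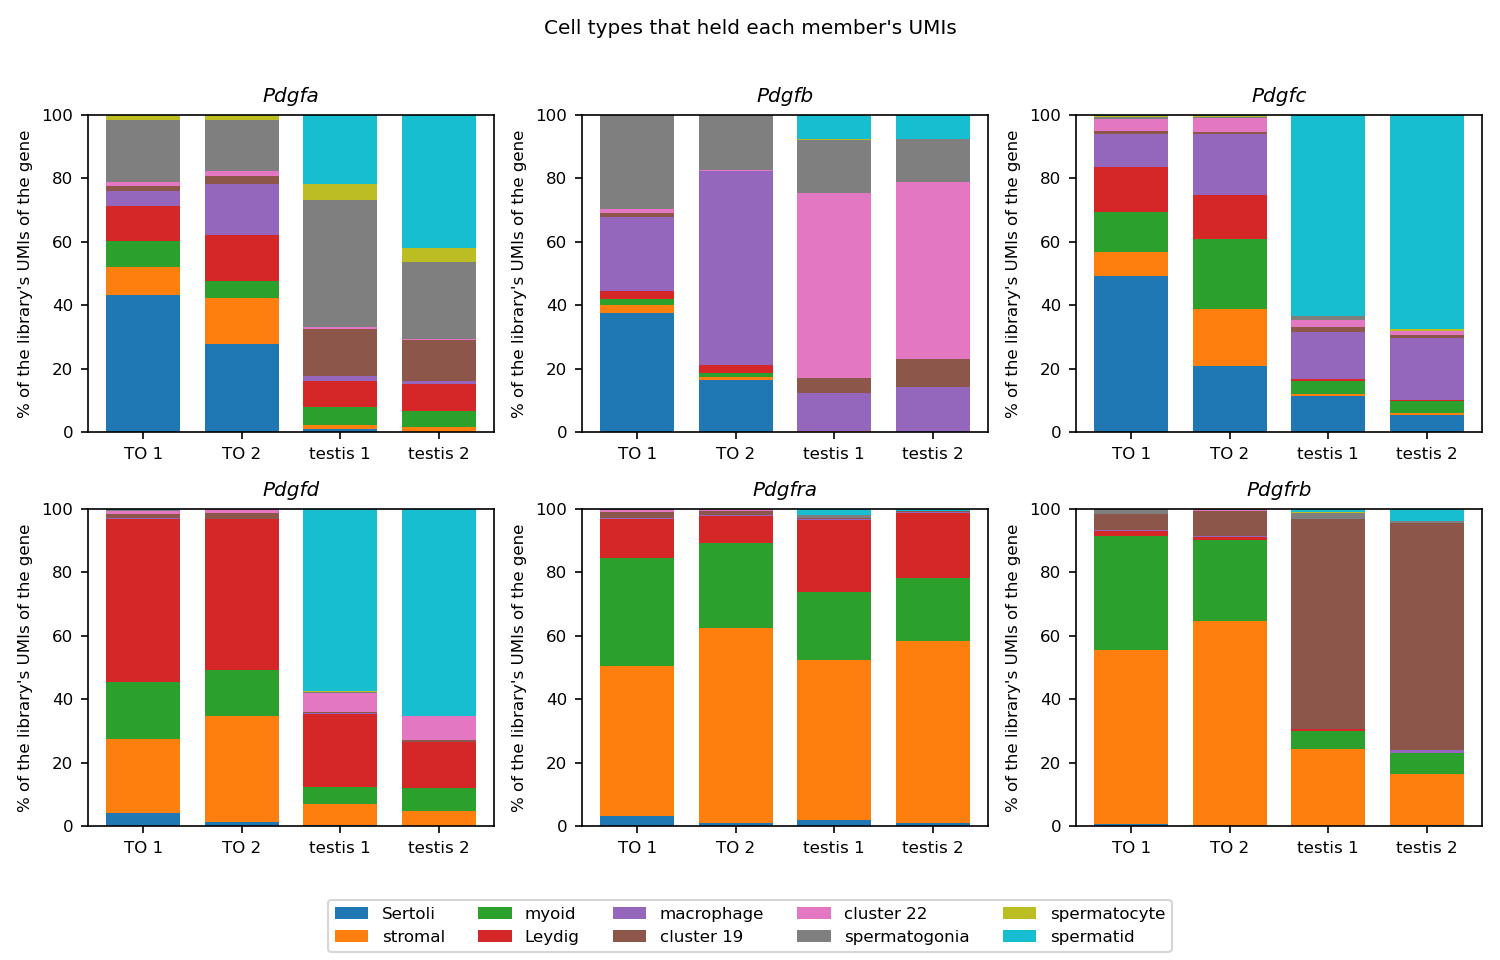
Share of each library's UMIs of each PDGF gene (y axis, percent) that came from each cell type, 1 bar per library. Sertoli cells gave 43.3% and 27.8% of the Pdgfa UMIs in TO and under 1% in testis. The largest Pdgfrb share was in cluster 19 in testis and in stromal cells in TO. Shares are not corrected for the numbers of cells.

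The sources of each ligand were also counted as shares of its UMIs per library. These shares carry the different cell numbers of TO and testis and are read beside each type's share of all UMIs. Spermatids held 63.1% and 71.7% of all UMIs in testis. Sertoli cells held 22.3% and 10.4% in TO and 5.73% and 2.86% in testis. Sertoli cells gave 43.3% and 27.8% of Pdgfa UMIs in TO and 0.835% and 0.166% in testis. In testis spermatogonia gave 40.2% and 24.0%, spermatids 21.7% and 42.1%, and cluster 19 gave 15.02% and 12.7%. Spermatids made up most testis cells, and Pdgfa in them was only at 4.58 and 7.57 CPM. Over all cells of a library, Pdgfa was at 21.6 and 19.8 CPM in TO and 13.3 and 12.9 CPM in testis.

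Pdgfb, the endothelial ligand, came mainly from endothelial-like cells in testis. They held 123 and 95 Pdgfb UMIs (187 and 161 CPM), 58.3% and 55.9% of all Pdgfb UMIs in these libraries. The TO cells of cluster 22 held 3 and 1 UMIs (6.33 and 1.33 CPM) and, as given above, no Pecam1. In TO the Pdgfb UMIs came from macrophages (23.1% and 61.1%), Sertoli cells (37.6% and 16.3%) and spermatogonia (29.7% and 17.4%), with the TO libraries differing in the order. In macrophages Pdgfb was at 26.7 and 36.9 CPM in TO and 34.6 and 38.1 CPM in testis, with overlapping groups (log2 difference 0.00, SE 0.33, adjusted p = 0.995).

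Macrophages differed in their alpha receptor ligands. Pdgfc, highest in testis macrophages among all types, was at 69.1 and 74.7 CPM in TO and 181 and 275 CPM in testis, and it fell by 1.48 on the log2 scale (SE 0.28, edgeR adjusted p = 0.00194). After thinning, 10.4% and 7.79% of TO and 21.5% and 26.2% of testis macrophages held a Pdgfc UMI. The call was lost without testis replicate 2 (adjusted p = 0.0148). Pdgfa moved the other way, from 12.5 and 11.1 CPM in testis (9 and 7 UMIs) to 32.8 and 51.0 CPM in TO. It rose by 2.01 (SE 0.41, adjusted p = 0.00315), a call lost without TO replicate 2 (adjusted p = 0.012), testis replicate 1 (0.0216) or testis replicate 2 (0.0189). These were 2 of 3 members compared in macrophages, where 16% of 9943 genes were called. All other cells were at 21.3 CPM of Pdgfa in the first TO library, against 32.8 in its macrophages.

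Pdgfc was also high in cluster 22, at 97.1 and 102 CPM in its TO cells, the highest level of any TO cell type, and at 30.5 and 15.2 CPM in its testis cells. In myoid cells it was at 14.8 and 35.7 CPM in TO and 27.3 and 32.2 CPM in testis, with overlapping groups. In stromal cells it was at 8.21 and 13.8 against 4.30 and 3.87 CPM (6 and 5 UMIs in testis). The groups did not overlap, but the log2 difference of 1.51 had an adjusted p of 0.0699 and was not called.

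Leydig cells held 182 and 241 Pdgfc UMIs in TO (9.92 and 12.8 CPM) and 8 and 2 in testis (2.22 and 0.590 CPM). The pooled ratio was 7.94 (4.28 to 16.7). With no gene left out the log2 difference was 2.92 (SE 0.60, adjusted p = 0.0109), just short of the threshold, where 14.1% of 15474 genes were called. In the planned Leydig comparison the gene was left out because it was higher in the other testis cells. Its change in Leydig cells exceeded that in Sertoli cells by 2.70 (SE 0.55, adjusted p = 0.00388) and that in myoid cells by 3.18 (SE 0.57, adjusted p = 0.00297). In the myoid and Leydig pair 4.75% of genes were called. The difference from Sertoli cells was lost without TO replicate 2 (adjusted p = 0.0149), testis replicate 1 (0.0345) or testis replicate 2 (0.119), and that from myoid cells without testis replicate 1 (0.0390) or testis replicate 2 (0.0643). Spermatids gave 63.4% and 67.6% of Pdgfc UMIs in testis, at 20.1 and 17.6 CPM, near their 63.1% and 71.7% of all UMIs.

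Pdgfd, a ligand of the beta receptor, was shared by the interstitial types. In Leydig cells it was at 186 and 251 CPM in TO and 152 and 82.9 in testis, and in stromal cells at 132 and 148 against 112 and 72.0 CPM. Neither difference was called (log2 0.74, adjusted p = 0.23, and 0.66, adjusted p = 0.127), although the libraries did not overlap in either. Myoid cells were at 110 and 134 CPM in TO and 95.8 and 144 CPM in testis, with overlapping groups. The testis endothelial-like cells held the highest testis level, 215 and 242 CPM. Leydig cells gave 51.5% and 47.6% of the Pdgfd UMIs in TO, where they held 28.1% and 26.2% of all UMIs. In testis spermatids gave 57.4% and 65.3%, below their 63.1% and 71.7% of all UMIs. These are the cells in which the overlapping Ddi1 was at 123 and 125 CPM. In TO spermatids Pdgfd was at 94.5 and 59.3 CPM from 28 and 11 UMIs.

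**Figure D3:**
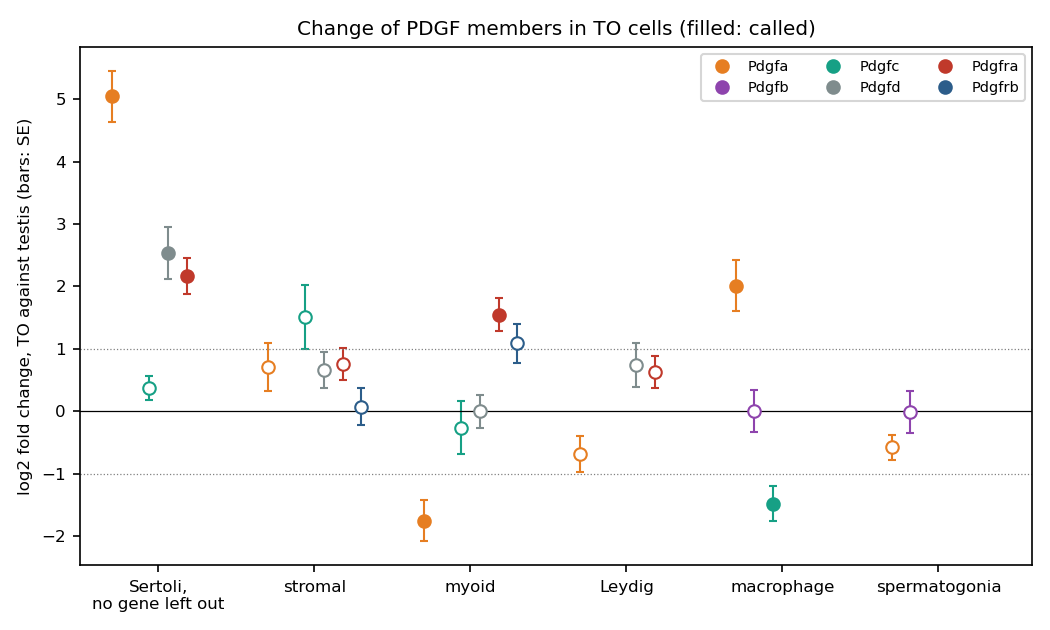
Log2 fold change, TO over testis, of each PDGF member compared in each cell type, with its standard error; filled points were called. Sertoli values are from the fit with no gene left out, without Pdgfb, which had 0 UMIs in testis Sertoli cells; in myoid cells Pdgfra was at 1.55 and Pdgfa at -1.75.

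Pdgfra, the alpha receptor, was a stromal and myoid transcript in both groups. In stromal cells, the fibroblast-like cells of the interstitium, it was at 618 and 671 CPM in TO and 430 and 368 CPM in testis. The groups did not overlap, but the log2 difference of 0.75 (SE 0.26) had an edgeR adjusted p of 0.0734 and was not called. The pooled ratio was 1.63 (1.53 to 1.74, counting error only). None of 5 members compared was called in stromal cells, where 17.1% of 14272 genes were. At an unadjusted p under 0.05 there were 2 (Pdgfra and Pdgfc), and DESeq2 called 0. In the single stromal clusters Pdgfra was at 605 and 660 against 423 and 371 CPM in cluster 1 (log2 difference 0.68, adjusted p = 0.0956) and at 714 and 977 against 481 and 329 CPM in cluster 13 (0.91, adjusted p = 0.0747). There 17.8% and 14% of genes were called. Without TO replicate 1, Pdgfra in cluster 13 was called (log2 change 1.27, adjusted p = 0.00393).

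In myoid cells Pdgfra was at 484 and 607 CPM in TO and 198 and 165 CPM in testis. It rose by 1.55 on the log2 scale (SE 0.27, edgeR adjusted p = 0.00118), with a pooled ratio of 2.97 (2.70 to 3.29). Pdgfra and Pdgfa were the 2 of 5 members called in myoid cells, 1 in each direction, where 20% of 13778 genes were called. The Pdgfra call was lost without testis replicate 2 (adjusted p = 0.0197) and with estimated background RNA subtracted (log2 change 1.59, adjusted p = 0.0191). The stromal and myoid changes of Pdgfra were not shown to differ (myoid minus stromal 0.77, SE 0.23, adjusted p = 0.167, with 0.451% of genes called in this pair).

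Some stromal markers were also higher in TO in these cells. In the myoid cluster Dcn was at 2066 and 2083 CPM in TO and 599 and 613 in testis, and Tcf21, a stromal transcription factor, at 631 and 1306 against 327 and 355 CPM. The 8 stromal markers summed to 4705 and 6537 against 3769 and 3674 CPM. Lum, another of them, was at 24.5 and 34.6 against 1.56 and 0 CPM. The markers of this list other than Dcn, Tcf21 and Lum did not together separate the groups. Cnn1, a smooth muscle protein, was at 280 and 159 CPM in TO and 587 and 527 CPM in testis, and the summed myoid markers were at 12015 and 8523 against 16577 and 17399 CPM. Among myoid cells with no Dcn UMI after thinning, 46.3% of 335 and 53.2% of 263 TO cells held a Pdgfra UMI, against 23.1% of 212 and 20.9% of 139 testis cells. In all myoid cells the shares were 47.9% and 56.8% against 26.3% and 20.8%.

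**Figure D4:**
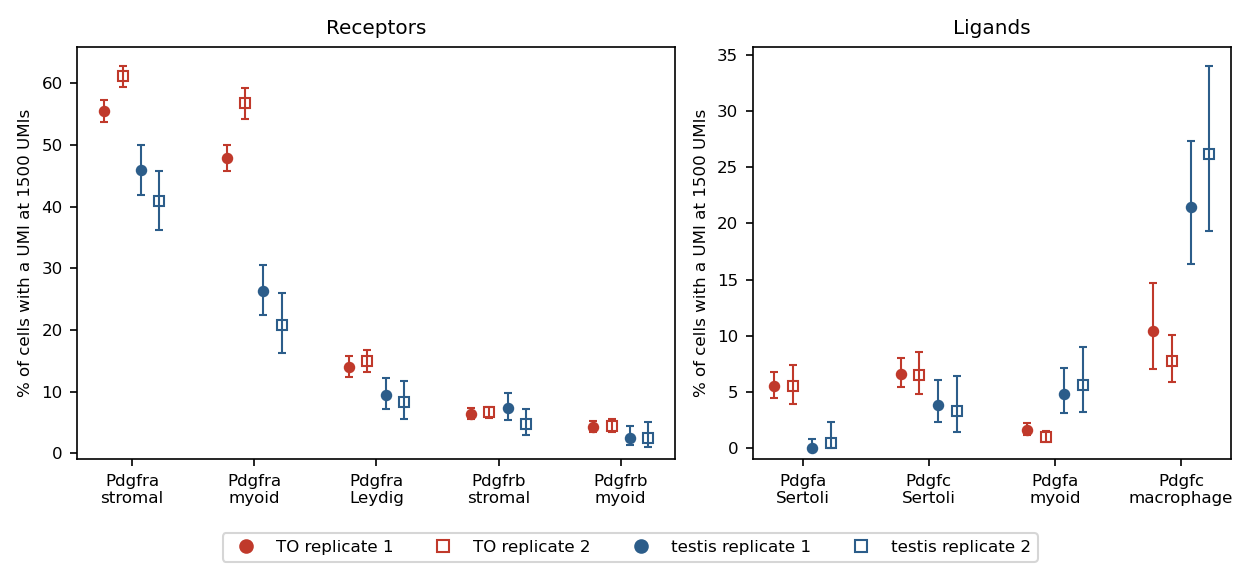
Percent of cells with a UMI of the named receptor (left) or ligand (right) after thinning to 1500 UMIs, without cells under that depth. Each library has 1 point with its exact 95% binomial interval, which covers counting error only. In myoid cells the Pdgfra share was 47.9% and 56.8% in TO and 26.3% and 20.8% in testis.

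The share of stromal cells with a Pdgfra UMI was 55.6% and 61.1% in TO and 45.9% and 40.9% in testis after thinning. Without thinning the gap between the group means was 27.6 percentage points, against 14.96 after it. In macrophages, which should lack the receptor, it was 2.23% and 1.44% in TO and 0 of 233 and 0 of 149 cells in testis (upper limits 1.57% and 2.45%). The TO cells of these types were deeper before thinning: stromal cells had medians of 3694 and 6739 UMIs in TO and 2214 and 2917 in testis, and TO macrophages medians of 6327 and 5987. After thinning, the Pdgfrb shares of stromal cells overlapped between the TO and testis libraries.

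Leydig cells carried less Pdgfra. They were at 102 and 113 CPM in TO and 74.2 and 50.5 CPM in testis (log2 difference 0.63, adjusted p = 0.18), with shares of 14.0% and 14.9% against 9.52% and 8.28% after thinning. None of 3 members compared was called in Leydig cells, where only 0.934% of 12211 genes were. There was 1 at an unadjusted p under 0.05, and DESeq2 called 0. In cluster 3 alone, the main Leydig cluster, Pdgfra was at 118 and 142 against 74.6 and 45.9 CPM (log2 difference 0.94, adjusted p = 0.118, with 0.335% of genes called). The TO libraries were unlike each other there. The 6 Leydig markers summed to 9654 and 3557 CPM in TO and 13053 and 18519 in testis, and each was lower in the second TO library. Insl3 was at 2600 and 183 CPM in TO and 3500 and 1783 in testis. Hsd3b1 alone was higher in both TO libraries than in testis. Their part in the Leydig values was not tested. The Pdgfra change in Leydig cells was lower than that in Sertoli cells by 1.30 (Leydig minus Sertoli -1.30, SE 0.30, adjusted p = 0.00837). This call was lost without TO replicate 1 (adjusted p = 0.0538), testis replicate 1 (0.0951) or testis replicate 2 (0.0320). The Leydig minus stromal difference was not called (-0.12, adjusted p = 0.816, with 5% of genes called in this pair).

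Over whole libraries the alpha receptor was at 234 and 341 CPM in TO and 26.4 and 17.7 CPM in testis, where spermatids made up most of the cells. Stromal cells gave 47.3% and 61.5% of its UMIs in TO and 50.5% and 57.4% in testis. Myoid cells gave 34.0% and 26.7% against 21.4% and 19.8%. Leydig cells gave 12.2% and 8.71% in TO and 22.5% and 20.7% in testis, where their range overlapped that of myoid cells. By level in CPM, stromal cells stood first and myoid cells second in both groups, with ranges that did not overlap.

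Pdgfrb (ENSMUSG00000024620, chr18:61045150-61085061 on the plus strand, protein coding, overlapping no other annotated gene), the beta receptor, was highest in the testis pericyte-like cells, at 360 and 417 CPM from 209 and 192 UMIs. These cells gave 66.1% and 71.6% of all Pdgfrb UMIs of the testis libraries. They held almost no alpha receptor (10.3 and 4.34 CPM), and after thinning 0 of 82 and 1 of 61 of those with a Pdgfrb UMI also held Pdgfra. The TO cells of cluster 19 had 70.6 and 125 CPM of Pdgfrb and 442 and 331 CPM of Pdgfra. In TO stromal cells gave 54.8% and 64.4% and myoid cells 35.9% and 25.7% of the Pdgfrb UMIs. Stromal cells held 17.9% and 31.3% of all UMIs in TO and 3.10% and 2.76% in testis.

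In stromal cells Pdgfrb was at 43.3 and 46.6 CPM in TO and 55.2 and 33.3 CPM in testis, with overlapping groups (log2 difference 0.07, SE 0.30, adjusted p = 0.877). The pooled ratio was 1.02 (0.844 to 1.23). In myoid cells it was at 31.0 and 38.6 against 14.0 and 18.1 CPM, from 18 UMIs in each testis library. The groups did not overlap, and the log2 difference of 1.09 (SE 0.31) had an adjusted p of 0.0218, short of the threshold. It passed with the filter on low counts dropped (adjusted p = 0.00692) and with the replicate number as a block (adjusted p = 0.00462). Leydig cells held 0.763 and 0.689 CPM in TO and 0.556 and 0 CPM in testis, so the beta receptor was at or near background there.

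Stromal cells with a Pdgfrb UMI also held Pdgfra often. After thinning, Pdgfra was in 56.5% and 68.7% of them in TO and 59.1% and 45.0% in testis, against 55.5% and 60.6%, and 44.8% and 40.7%, of the remaining stromal cells. The testis shares rest on 44 and 20 cells with a Pdgfrb UMI.

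The genes with the pattern most like each member across 39 sums of library and cell type, by Pearson correlation of log2(CPM + 1) among 15299 genes, were Gria3 (r = 0.960), Dpyd (0.951) and Acss3 (0.946) for Pdgfra, and Pi15 (0.938), Notch3 (0.933) and Pde3a (0.926) for Pdgfrb. Notch3, a receptor of mural cells, is 1 of the pericyte markers used to name the cluster. Pdgfd was nearest to Serpinb9 (0.910), Hoxd4 (0.874) and Thrb (0.873), and Pdgfb to Ehd4 (0.884), Smagp (0.871) and Abcg1 (0.870). The ligands Pdgfc and Pdgfa had weaker neighbours, led by Tmsb4x (0.813) and Inka2 (0.788). Sums of a library share its depth and preparation, so these are descriptions.

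Genes that process the ligands or act downstream were followed in 3 lists. Of 10 genes for ligand processing and binding, 7 were compared in myoid cells and 3 were higher: Nrp1, a co-receptor (401 and 508 against 66.2 and 73.5 CPM, log2 change 2.67, adjusted p = 2.82e-05), Plat, the tissue plasminogen activator that can cleave PDGF-C (15.8 and 15.004 against 1.56 and 5.03 CPM, 2.26, adjusted p = 0.00812), and Furin, a protease that processes PDGF-A and PDGF-B precursors (94.2 and 83.4 against 39.7 and 25.2 CPM, 1.39, adjusted p = 0.00252). The list's median log2 change was 1.39, against 0.10 over all genes compared. In stromal cells 1 of 8 was higher and 1 lower. Pdgfrl, a receptor-like gene, was at 40.1 and 20.5 against 2.15 and 0 CPM (adjusted p = 0.00424), and Plau, the urokinase that can cleave PDGF-D, was at 5.22 and 6.09 against 24.4 and 56.5 CPM (log2 change -2.73, adjusted p = 0.00263). Plau went the other way in macrophages, at 206 and 81.0 against 22.2 and 14.3 CPM (3.13, adjusted p = 0.000484), as 1 of 4 compared.

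In Sertoli cells 1 of 5 of this list was higher and 1 lower. Sparc, a matrix protein that binds PDGF-B, was at 6035 and 6364 against 1751 and 1887 CPM (1.82, adjusted p = 0.000351), and Pcsk6, a proprotein convertase, was at 17.6 and 23.8 against 52.8 and 41.8 CPM (-1.16, adjusted p = 0.00818). In Leydig cells Pcsk5, another convertase, was lower as 1 of 6 (33.6 and 30.2 against 115 and 102 CPM, -1.92, adjusted p = 0.00938). The list medians were 0.66 in Sertoli, 0.42 in stromal, -0.26 in Leydig and 0.43 in macrophage cells, against 0.02, 0.06, 0.02 and 0.07 over all genes.

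Of 21 genes of receptor-proximal signalling, all were compared in the Sertoli, stromal, myoid and Leydig fits. In Sertoli cells 3 were higher and none lower: Stat5b (62.1 and 61.6 against 10.1 and 2.99 CPM, 3.11, adjusted p = 0.000536), its close paralog Stat5a (2.96, adjusted p = 0.00605), with which it may share reads, and the kinase Src (1.20, adjusted p = 0.00273). In myoid cells 3 were higher: Stat3 (436 and 366 against 89.6 and 73.5 CPM, 2.25, adjusted p = 6.63e-05), Jak1 (1.26, adjusted p = 0.0027) and Pik3r1 (1.09, adjusted p = 0.00832). In stromal cells Stat3 alone was higher (424 and 326 against 128 and 115 CPM, 1.69, adjusted p = 0.00248), and in Leydig cells and macrophages none was called. The medians were 0.43, 0.71, 0.41, 0.24 and 0.25 in Sertoli, myoid, stromal, Leydig and macrophage cells.

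Of 11 negative regulators, 4 of 10 compared were higher in Sertoli cells, and all 4 damp receptor tyrosine kinase signalling through the ERK pathway. These were Spry2 (16.4 and 22.2 against 1.17 and 3.73 CPM, 3.24, adjusted p = 0.00229), Spred1 (2.32, adjusted p = 0.000391), Spry1 (1.85, adjusted p = 0.00898) and the phosphatase Dusp6 (1.78, adjusted p = 0.00229). In Leydig cells Spry1 was at 95.2 and 71.3 against 5.84 and 5.90 CPM (3.67, adjusted p = 0.00754), as 1 of 11. In myoid cells Spred1 was higher as 1 of 10 (1.17, adjusted p = 0.00837). None of 9 was called in stromal cells, of 8 in macrophages or of 9 in spermatogonia. The medians were 0.71 in Sertoli, 0.34 in Leydig, 0.49 in myoid, 0.53 in stromal and 0.02 in macrophage cells. The lists also serve other growth factors, and the calls are read against the percentages of all genes called in the same direction. Genes called higher were 7.43% of all genes in Sertoli, 1.95% in stromal, 3.72% in myoid, 0.278% in Leydig and 2.71% in macrophage cells. Genes called lower were 17%, 15.2%, 16.3%, 0.655% and 13.3%, in the same order. Some list calls rest on few testis UMIs. In the first testis library, levels at or under a floor of 3 counts were those of Plat in myoid cells (floor 2.34 CPM), Pdgfrl in stromal cells (2.15) and Stat5a and Spry2 in Sertoli cells (1.17). Stat5a was at 6.46 and 9.13 CPM in TO and 1.17 and 0.746 in testis. Fits without single libraries are not given for the list genes, so their calls are not shown to be firmer than those of the members.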

How the data were processed

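Single-cell RNA-seq libraries of 2 TO and 2 testis samples were analysed. The submitters' processing notes name Cell Ranger 7.1.0 and mm10. What the authors deposited are unnormalized UMI counts, 1 matrix of genes by barcodes for each library. Depth per library is given in the report. Here, doublets were removed with Scrublet's method (0.8% expected per 1000 barcodes). A cell was kept if it had 1000 to 5000 genes detected, no more than 20000 UMIs and a mitochondrial share up to 10%. Clusters came from 2000 variable genes without the 6 members, 30 principal components, Harmony (own implementation) and Leiden at resolution 1 (scanpy 1.11.5, leidenalg 0.10.2). Names required at least 3 markers of a fixed list.

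UMIs were summed per library and cell type and tested over all genes with edgeR 4.0.16 in R 4.3.3 (TMM, filterByExpr, quasi-likelihood test, Benjamini-Hochberg). Genes at least 5 times higher in the other cells in either condition were left out. A gene was called at an adjusted p under 0.01 and an absolute log2 change over 1; differences between types were called at an adjusted p under 0.01. Each edgeR SE was worked back as the absolute log2 change over the square root of the test's F statistic, and is approximate. A type was fitted where each library held at least 10 cells. The planned fits of endothelial cells and pericytes are not reported, because the TO cells of these clusters lacked the defining markers. Simulated counts with known changes served to check what the fits can find. At 2-fold, 17.9% of altered genes were called in Sertoli, 1.5% in stromal, 3% in myoid, 1.5% in Leydig and 0% in macrophage cells. At 4-fold the shares were 67.2%, 58.2%, 49.3%, 56.7% and 67.2%, and at 8-fold 86.4%, 72.7%, 86.4%, 81.8% and 87.9%, in the same order. A member that was not called may therefore still have changed by 2-fold or 4-fold, and some 8-fold changes were missed too. DESeq2 1.42.0 was an alternative. Count intervals are exact Poisson or Clopper-Pearson at 95%. PCR copies are removed by UMIs, and intervals cover counting error only.

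The members and gene lists were chosen with earlier results of these data known. Named genes were the 6 members, at most 4 called genes per pathway list and cell type by size of change, and the 3 genes most correlated with each member among those of at least 20 CPM in a sum. Markers named beside a result were chosen after their values were seen. Gene positions came from GENCODE vM21 by identifier (32158 of 32285 matched). Start sequences came from RefSeq, and those of Pdgfb and Pdgfrb are not shown here.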

Additional observations from a re-analysis of the deposited data

Results flagged for a closer look

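Differences between cell types in the TO against testis change passed the test for 3 members. For Pdgfa the change in Sertoli cells was higher than in each of the other types tested: the stromal minus Sertoli difference was -4.03 on the log2 scale, the myoid minus Sertoli difference -6.51 and the Leydig minus Sertoli difference -5.44. For Pdgfc, the Leydig minus Sertoli difference was 2.70 and the Leydig minus myoid difference 3.18, both resting on 10 Pdgfc UMIs in testis Leydig cells. For Pdgfra, the Leydig minus Sertoli difference was -1.30, with 30 Pdgfra UMIs in testis Sertoli cells. Without testis replicate 1 or without testis replicate 2, the Pdgfa differences of myoid and Leydig from Sertoli cells were called, and no difference of Pdgfc or Pdgfra was.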

How the results depend on the processing

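In Sertoli cells the planned comparison called 0 of 1 member, against 4 of 5 with no gene left out and 2 of 3 when genes were left out only by the condition with the higher level (chosen after seeing the data). In myoid cells 2 members were called, 0 with background RNA subtracted, and 0 to 2 when single libraries were left out (1 without testis replicate 1, 0 without testis replicate 2). In macrophages and germ cells together 2 were called, and 0 to 2 without single libraries. In the single stromal clusters 0 were called, and 0 to 1 without single libraries. Of 30 differences between cell types, 6 were called, and 2 to 7 of the 30 when single libraries were left out. Without TO replicate 1, 5 of the 6 were kept. Without TO replicate 2, 5 were kept and 2 others called, Pdgfra between stromal and Sertoli and Pdgfd between myoid and Sertoli cells. Without testis replicate 1 or 2, 2 of the 6 were kept. The subtracted background was estimated from marker lists that related stromal and myoid cells share. It ended every call over all genes in stromal cells, where 2447 genes were called, and left 774 of 2761 in myoid cells. The 114 calls over all genes in Leydig cells became 1108 with DESeq2, 2183 with no gene left out, 248 with any count, 470 with doublets kept, 10 without upper limits, 0 with background subtracted and 41 with a replicate block.

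With a replicate block, 3 members were called in myoid cells and the counts elsewhere did not change; same-numbered libraries correlated at 0.04 to 0.16, with 2 pairs, so the numbers are not shown to pair them. Of 351 log2 changes recomputed, 310 kept direction and side of the threshold, 12 lost and 3 gained a call, and 26 changed sign, none of them called. The sign changes were in Pdgfd in myoid cells (any count 0.086, no gene left out 0.0052, higher condition 0.020, doublets kept 0.051, resolution 2 0.036, replicate block 0.0081, libraries left out -0.29 to 0.25), Pdgfrb in stromal cells (no upper limits -0.025, without Harmony -0.018), Pdgfa in stromal cells (-0.44) and Pdgfra in Leydig cells (-0.074) with background subtracted, and Pdgfb in macrophages (-0.021 with the replicate block). With single libraries left out, the ranges that crossed 0 were -0.28 to 0.54 for Pdgfrb in stromal cells, -0.23 to 0.47 in cluster 1 and -0.37 to 1.42 in cluster 13, -0.063 to 0.52 for Pdgfa in spermatocytes, -0.23 to 0.21 and -0.25 to 0.22 for Pdgfb in macrophages and spermatogonia, and -1.04 to 0.25 for Pdgfc in myoid cells. Their causes were not tested. Low UMI counts of the testis sums, 6 for Pdgfa in Sertoli cells and 36 for Pdgfrb in myoid cells, limit the precision.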
